A study of Mus musculus with 65 samples.

Results

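The nuclear genes of the mitochondrial respiratory chain were followed across single aged blood stem cells. The genes were the protein-coding ones whose symbols start with Nduf, Uqcr, Atp5, Cox4, Cox5, Cox6, Cox7 or Cox8, or equal Sdha, Sdhb, Sdhc, Sdhd or Cycs. Of 97 such genes in the RefSeq annotation of GRCm38.p6, 51 were among the 18036 genes of the table and 46 were not analysed here. The 51 comprised 19 of 39 subunits of complex I, 4 of 8 assembly factors of complex I, 2 of 4 subunits of complex II, 7 of 8 of complex III, cytochrome c, 10 of 19 of complex IV with the related gene Ndufa4l2, and 7 of 17 of the ATP synthase. Of the 51, 46 had at least 1 count in some cell. The genes were set by name and not by a measured value, but the choice was made with earlier results of these data known.

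The study isolated long-term hematopoietic stem cells from the marrow of femora and tibiae of mice over 20 months old. All mice carried both transgenes, SCL-tTA and H2B-GFP: regulatory sequence of the stem cell gene Scl drives a transactivator that switches on a histone H2B fused to GFP, and a cell that divides after the label stops being made thins it out. Marrow cells depleted of mature lineages were sorted singly as LSK (lineage negative, Sca-1+, Kit+) CD150+ cells with no CD48 or Flk2 and little or no CD34. Those with GFP are the label-retaining group (37 cells) and those without it the non-label-retaining group (28 cells). Both groups came from the same 4 biological repeats, with 9, 9, 10 and 9 cells in the first group and 8, 4, 6 and 10 in the second, and every cell of both groups was kept overnight without growth factors at 3% oxygen before SMART-Seq v4 amplification of polyadenylated RNA. The labels do not say how many mice made up a repeat or for how long the label was chased.

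The respiratory chain passes electrons from NADH (complex I) and succinate (complex II) through ubiquinone, complex III and the small carrier cytochrome c to oxygen at complex IV, and the protons pumped on the way drive the ATP synthase. Apart from complex II and cytochrome c, each complex joins nuclear-encoded subunits to a few made from mitochondrial DNA. Quiescent blood stem cells are known for leaning on glycolysis, with mitochondria held at low activity, and for raising respiration as they enter division and differentiation.

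Depth and the likeness of libraries differed within and between the groups, and bear on every value that follows. Total counts ran from 27954 to 20516069 in label-retaining cells (median 264894) and from 86 to 661078 in non-label-retaining cells (median 118056), and 4 cells, all non-label-retaining, had under 10000 counts. Median genes with a count were 1859 and 890 per cell. The values of 14 libraries, in 6 sets, correlated with another library at 0.7 or more over the log2(CPM + 1) values of genes found in at least 10 cells, respiratory chain genes left out. One set joined cell 3 of the label-retaining group, the deepest library, with cell 3 of the non-label-retaining group of the same repeat (r = 0.91), which goes against their separate labels. Another held label-retaining cells 20 to 23 of repeat 3 (r up to 0.97). The highest correlation between cells of different repeats was 0.49. Results are therefore given also with each set counted once, which leaves 57 libraries. Of the 10 stem cell markers that could be looked up, 9 had a count and 6 were found in at least 10 cells, led by Hlf in 43 and Gata2 in 34. Hoxa9 was found in 5 cells, Hoxb5 in 2 and Fgd5 in 2. Slamf1, the gene of CD150, was at 0, although every cell was sorted as CD150+. Cd48 and Flt3, which the sort excluded, were also at 0, which therefore says little of the sort. Of the markers of other cells, neutrophil genes were found in 4 cells and T and NK cell genes in 3, with Elane, Mpo, Ltf, Csf1r, Ebf1, Fcer1a, Gp9 and Col1a1 at 0. Some gene of the B cell list was found in 20 cells (Cd74 in 13, Cd79a in 11) and of the endothelial list in 26 (Pecam1). Some gene of the stromal list was found in 28 (Col1a2 in 27) and of the monocyte list in 31 (Cx3cr1 in 25). For the megakaryocyte list it was 42 (Itgb3 in 38, Vwf in 24). One of these, Itgb3, had shares of cells that did not overlap between the groups (29 label-retaining and 9 non-label-retaining cells). The same held for 7.84% of the 3379 genes found in at least 10 cells. The B cell genes Cd79a (8 and 3 cells) and Cd74 (8 and 5) had fitted log2 fold changes of 6.42 and 6.11 towards label-retaining cells (unadjusted p = 0.0133 and 0.0218 by edgeR). Of all 2767 genes tested, 6.47% had an unadjusted p under 0.05 in that direction, and 0 passed an adjusted p of 0.05. The 5 erythroid genes were found in 61 cells and took 0.143 to 9.37% of counts in the label-retaining and 0.386 to 3.18% in the non-label-retaining repeats. The part of these genes and of depth in the results was not tested. Fewer transcripts of a gene in a cell and a smaller or less well captured cell cannot be told apart.

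Promoters of the genes that the results turn on are shown first, each as the 120 bases just before the transcription start, from RefSeq GRCm38.p6. Sdha and Cox7c are shown because their shares of cells separated the groups, Cycs because its shares did not, and Cox6b1, Cox6b2 and Cox8b because they set a widely used subunit beside tissue-restricted ones. Capitals mark matches to NRF1 (GCGCA, any base, then GCGC), ETS (CCGGAAG) or YY1 (AAGATGGCG), sites of 3 factors known for binding promoters of nuclear mitochondrial genes, searched on both strands. The first 2 windows are Sdha on the minus strand of chr13:74350241-74350360 and Cox7c on the minus strand of chr13:86046796-86046915.
Sdha: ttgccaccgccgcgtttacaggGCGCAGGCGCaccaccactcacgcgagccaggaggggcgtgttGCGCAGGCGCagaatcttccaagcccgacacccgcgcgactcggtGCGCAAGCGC
Cox7c: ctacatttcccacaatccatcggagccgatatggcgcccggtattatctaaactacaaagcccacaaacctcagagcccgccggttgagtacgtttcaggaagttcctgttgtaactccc
The next are Cycs (minus strand, chr6:50566570-50566689), Cox6b1 (minus strand, chr7:30626115-30626234), Cox6b2 (minus strand, chr7:4753095-4753214) and Cox8b (minus strand, chr7:140900447-140900566).
Cycs: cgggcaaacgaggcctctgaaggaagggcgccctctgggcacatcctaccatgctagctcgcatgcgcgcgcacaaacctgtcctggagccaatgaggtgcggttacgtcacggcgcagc
Cox6b1: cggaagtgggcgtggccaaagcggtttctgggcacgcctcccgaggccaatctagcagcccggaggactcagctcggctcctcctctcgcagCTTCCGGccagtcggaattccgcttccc
Cox6b2: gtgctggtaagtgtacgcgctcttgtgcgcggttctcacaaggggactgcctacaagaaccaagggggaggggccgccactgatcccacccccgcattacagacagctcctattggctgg
Cox8b: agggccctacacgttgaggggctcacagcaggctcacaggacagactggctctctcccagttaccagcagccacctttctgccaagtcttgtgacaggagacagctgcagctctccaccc

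Sdha, whose promoter holds 3 NRF1 matches starting 98, 55 and 10 bases before the start, was the 1 gene with 3 matches among the 39 respiratory chain genes with a promoter in the RefSeq table. Over the whole 300-base promoter, from 250 bases before to 50 after the start, NRF1 matches were in 15.4% of these 39 genes against 7.17% of all 17492 protein-coding promoters. YY1 matches were in 15.4% against 2.14%, all 6 of them 11 to 36 bases after the start, as in Atp5j2, Ndufs4 and Ndufs7. ETS matches were in 12.8% against 12.95%. Matches of the 3 motifs shared no base in these promoters. CpG pairs numbered a median of 19 per promoter in the 37 genes with a count and 15 over all genes, with 7 in Cox7a1 and 2 in Cox8b, both without a count in these cells. A match describes letters and not binding, and the absence of these letters from a window says nothing of the factors.

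Respiratory chain genes were found, that is had at least 1 count, in more label-retaining than non-label-retaining cells of every repeat. A label-retaining cell held on average 71.7%, 50%, 45.2% and 24.6% of the 46 genes in repeats 1 to 4, and a non-label-retaining cell 45.1%, 28.8%, 23.9% and 13.5%. Within each repeat the label-retaining value was the higher, but the groups overlapped across repeats (47.9 ± 19.3% against 27.8 ± 13.2%, SD, n = 4 repeats each). All genes did the same: over the 3379 genes found in at least 10 cells the shares were 46.2 ± 10% and 26.7 ± 6.83%, a ratio of 1.73 beside 1.71 for the 45 respiratory chain genes in that set. With alike libraries counted once the 46 genes gave 43.9 ± 21.2% and 26.2 ± 10.5%. With each cell thinned to 10000 counts, which leaves out the 4 shallower cells, the 46 genes gave 29.2 ± 14.5% against 15.8 ± 13.2%, still higher in the label-retaining cells of all 4 repeats, and the 3379 genes 22.9 ± 5.85% against 15.6 ± 8.2%, higher in 3 of 4.

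**Figure D1:**
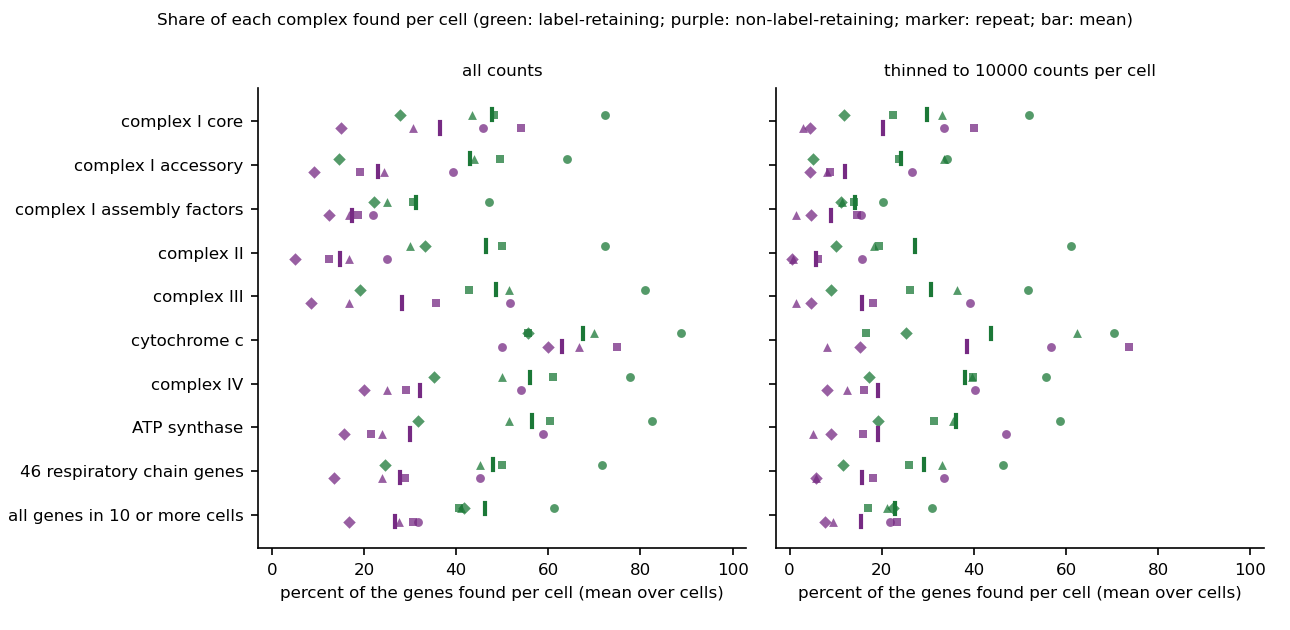
Share of the genes of each complex found per cell (mean over the cells of a repeat, percent, x axis) with all counts (left) and after thinning each cell to 10000 counts (right); markers are the 4 repeats, short bars the mean of 4, green label-retaining and purple non-label-retaining cells. Complex II shows the widest gap between the means with all counts (46.4% and 14.8%) and cytochrome c the narrowest (67.5% and 62.9%), and the bottom row gives the same measure over 3379 genes.

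Of the 45 respiratory chain genes found in at least 10 cells, 39 had the larger mean share of cells in the label-retaining group, beside 93.3% of the 3379 genes. For 2 of the 45, Sdha and Cox7c, the 4 label-retaining values lay above all 4 non-label-retaining ones, where 7.84% of all genes did so, and 0 genes lay wholly the other way. An exact two-sided permutation test of 4 repeats against 4 cannot go below p = 0.0286, and after Benjamini-Hochberg adjustment over the 3379 genes no gene passed 0.05 (smallest adjusted p = 0.364, with 265 genes at an unadjusted p of 0.0286). Neither this test nor the overlap uses the pairing of the groups by repeat, and a sign-flip test over the 4 pairs cannot go below p = 0.125. The other 6 had the larger share in non-label-retaining cells, Uqcrc2, Ndufs8 and Ndufc2 among them. After thinning to 10000 counts, Cox7c and Atp5j2 were the 2 whose values did not overlap (4.68% of all genes, with 0.118% the other way), and 42 of 45 had the larger mean share in label-retaining cells, beside 75.7% of all genes. Thinned to 20000 counts, they were Cox7c and Ndufaf2 (5.68%, with 0.0592% the other way), with 41 larger (77% of all genes). At 10 counts or more they were Cox7c, Atp5j2, Atp5h and Ndufa2 (12.6%), with all 45 larger (93.6%). With alike libraries counted once it was Ndufa5 alone (8.4%), with 40 larger (93.4%), and without cells under 10000 counts Sdha alone (5.24%), with 38 larger (86.4%). Without the deepest library Cox7c and Sdha again did not overlap (7.31%), with 39 larger (92.5%). Neither Cox7c nor Sdha had groups that lay apart in all settings. For Cox7c they lay apart with all counts, at 10 counts or more, after both thinnings and without the deepest library. For Sdha they lay apart with all counts, without cells under 10000 counts and without the deepest library, but in neither thinning nor at 10 counts or more. The settings reuse the same cells, so their number is not added evidence.

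**Figure D2:**
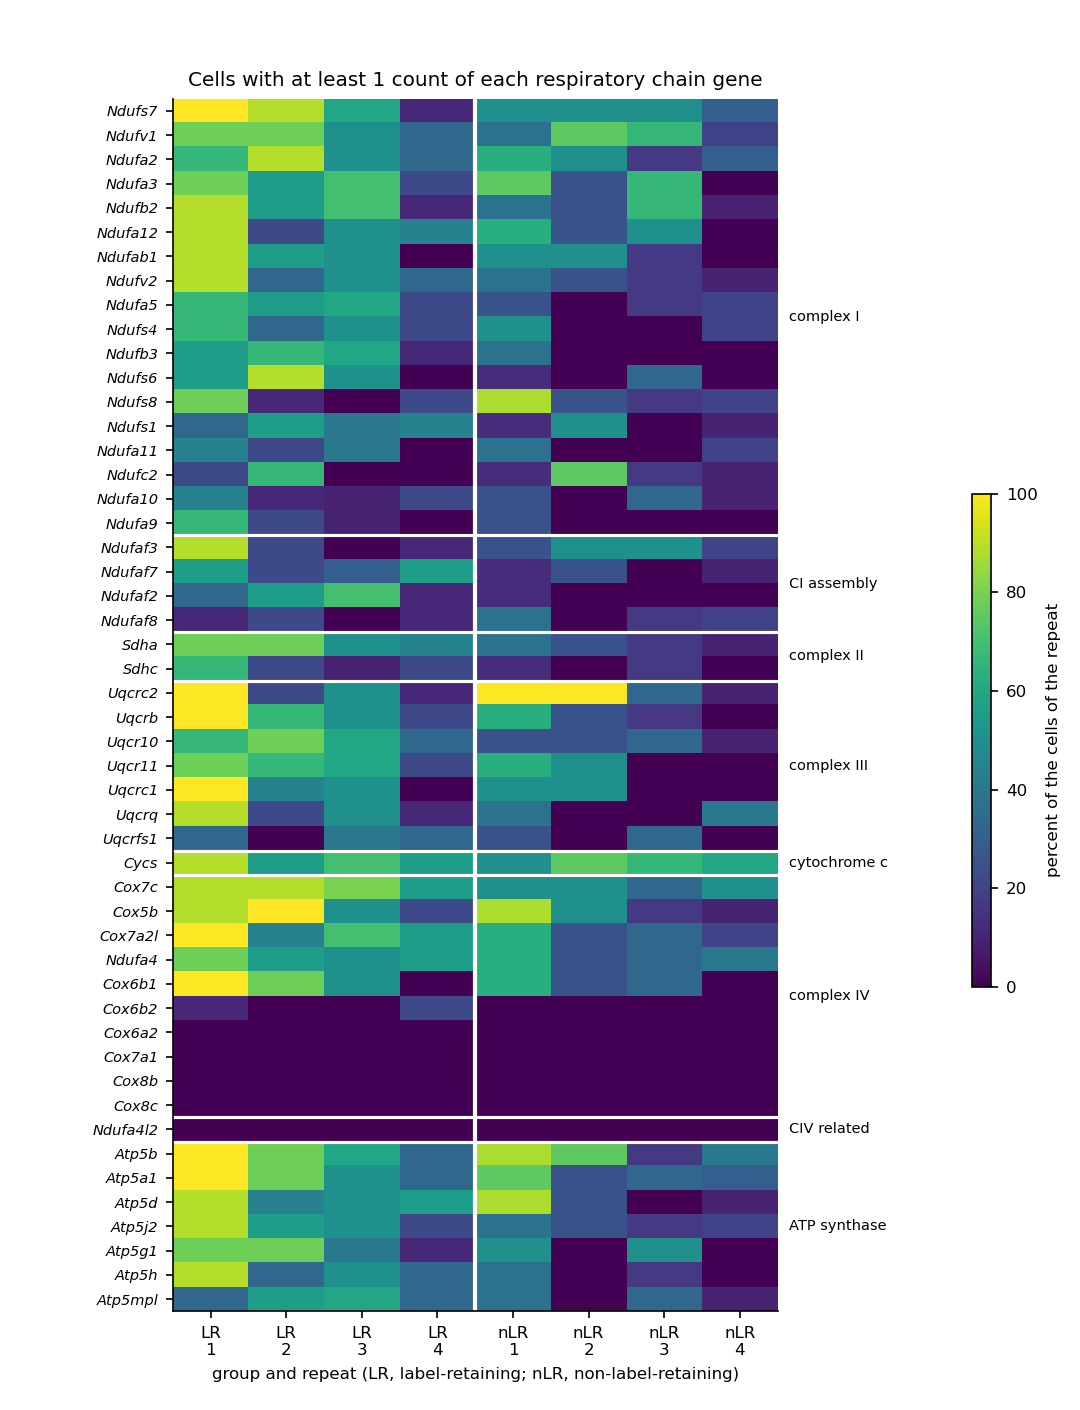
Percent of the cells of each repeat (colour) in which each of 50 respiratory chain genes had at least 1 count, ordered by complex and then by the number of cells; columns are the 4 label-retaining (LR) and 4 non-label-retaining (nLR) repeats. Repeat 1 has the brightest column and repeat 4 the darkest in both groups (71.7% and 24.6%, 45.1% and 13.5% of the 46 genes per cell), and the 5 genes without a count form the dark rows of complex IV and its related gene.

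Complex I takes electrons from NADH through a core of catalytic subunits wrapped in accessory ones. Its 6 core genes in the table were found at 72.2%, 48.1%, 43.3% and 27.8% per label-retaining cell and at 45.8%, 54.2%, 30.6% and 15.0% per non-label-retaining cell, so repeat 2 lay the other way. The 13 accessory genes gave 43.0 ± 20.8% and 23.1 ± 12.6%, with the label-retaining value higher in 4 of 4 repeats. Ndufs7, a core subunit that carries an iron-sulfur cluster, was found in 24 label-retaining and 12 non-label-retaining cells: 100%, 88.9%, 60.0% and 11.1% of the cells against 50%, 50%, 50% and 30.0%. The label-retaining repeats thus ran from the highest to the lowest of the 8 values. Ndufv1, the core subunit that binds NADH, was found in 22 and 12 cells, at 77.8%, 77.8%, 50% and 33.3% against 37.5%, 75.0%, 66.7% and 20.0%, and the groups interleaved.

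Ndufa2, an accessory subunit of the matrix arm, was found in 66.7%, 88.9%, 50% and 33.3% of label-retaining and 62.5%, 50%, 16.7% and 30.0% of non-label-retaining cells. Ndufa3, an accessory subunit of the membrane arm, was found in 77.8%, 55.6%, 70.0% and 22.2% against 75.0%, 25.0%, 66.7% and 0%. Both were higher in the label-retaining cells of each repeat with the groups overlapping (exact permutation p = 0.229 and 0.514, two-sided). The other complex I genes ranged from Ndufb2, in 30 cells, to Ndufa9, in 11. Ndufv1 and its partner Ndufv2, which sit together in the NADH-binding module, were found together in 14 of 37 label-retaining cells and in 2 of 28 non-label-retaining cells, where 10 held Ndufv1 alone and 4 Ndufv2 alone.

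Among the assembly factors, which build complex I and are not part of it, Ndufaf2 was the most lopsided. It was found in 33.3%, 55.6%, 70.0% and 11.1% of label-retaining cells and in 12.5%, 0%, 0% and 0% of non-label-retaining cells, that is in 16 cells against 1. The non-label-retaining repeat with a count lay just above the lowest label-retaining repeat (exact permutation p = 0.0571, two-sided, adjusted p = 0.378 over 3379 genes). That 1 non-label-retaining cell held 1 count, and none of the 28 held 10 counts, as 9 label-retaining cells did. Ndufaf7, a methyltransferase that acts on a complex I subunit, was found in 15 and 3 cells, and after thinning its mean shares were 7.34 ± 12.2% and 10 ± 15.2%, the larger now in non-label-retaining cells. Ndufaf3 (11 and 9 cells) and Ndufaf8 (4 and 6) had the larger mean share in non-label-retaining cells. For Ndufaf3 that order turned after thinning to 10000 counts (16.2% against 20.7%), with alike libraries counted once (31.9% against 32.1%) and at 10 counts or more (2 against 9 cells).

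Complex II, succinate dehydrogenase, links the chain to the citric acid cycle. Its flavoprotein Sdha, on the minus strand of chromosome 13 (74322255 to 74350240), was found in 77.8%, 77.8%, 50% and 44.4% of label-retaining and 37.5%, 25.0%, 16.7% and 10% of non-label-retaining cells. The lowest label-retaining repeat lay above the highest non-label-retaining one, a difference of 40.2 points (62.5 ± 17.8% against 22.3 ± 11.9%, SD, n = 4; exact permutation p = 0.0286, adjusted p = 0.364). With alike libraries counted once, label-retaining repeat 3 and non-label-retaining repeat 1 both stood at 28.6%, so the groups touched, and the difference was 40.9 points. After thinning to 10000 counts the values were 73.2%, 29.3%, 35.7% and 13.7% against 18.1%, 12.2%, 0.252% and 0.866%, and label-retaining repeat 4 lay within the non-label-retaining range (exact permutation p = 0.0571). At 10 counts or more Sdha was found in 13 label-retaining cells and 1 non-label-retaining cell. Sdhc, the membrane anchor in the table, was found in 11 and 2 cells, 10 of the 11 also with Sdha.

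Complex III passes electrons from ubiquinol to cytochrome c. Its 7 genes gave 81.0%, 42.9%, 51.4% and 19.0% per label-retaining cell and 51.8%, 35.7%, 16.7% and 8.57% per non-label-retaining cell. Uqcrc2, a core protein, ran against the others: it was found in 100%, 22.2%, 50% and 11.1% of label-retaining cells and in 100%, 100%, 33.3% and 10% of non-label-retaining cells. It was the 1 complex III gene with the larger mean share in non-label-retaining cells (60.8 ± 46.2% against 45.8 ± 39.6%, exact permutation p = 0.743, two-sided), and that order turned after thinning to 10000 counts (29.7% against 35.1%) and at 10 counts or more, but not after thinning to 20000 counts (a difference of -1.03 points, label-retaining minus non-label-retaining). Its partner core protein Uqcrc1 was found in 18 and 6 cells, and all 6 of those non-label-retaining cells also held Uqcrc2, while 9 others held Uqcrc2 alone. Uqcr10, a small subunit, was found in 66.7%, 77.8%, 60.0% and 33.3% against 25.0%, 25.0%, 33.3% and 10%, the groups meeting at one value (exact permutation p = 0.0571, two-sided, adjusted p = 0.378).

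Cytochrome c is the carrier between complexes III and IV and a trigger of apoptosis once released into the cytosol. Cycs was found in 88.9%, 55.6%, 70.0% and 55.6% of label-retaining and 50%, 75.0%, 66.7% and 60.0% of non-label-retaining cells. The groups interleaved, with the non-label-retaining value the higher in repeats 2 and 4 (67.5 ± 15.8% against 62.9 ± 10.6%, exact permutation p = 0.657, two-sided). At 10 counts or more it was found in 17 label-retaining and 4 non-label-retaining cells.

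Complex IV, cytochrome c oxidase, hands the electrons to oxygen. Cox7c, a small subunit of its membrane part, was found in 29 label-retaining and 13 non-label-retaining cells, 42 in all, as many as Cycs and more than the other genes. Its values were 88.9%, 88.9%, 80.0% and 55.6% against 50%, 50%, 33.3% and 50%, so the groups did not overlap (78.3 ± 15.8% against 45.8 ± 8.33%, exact permutation p = 0.0286, adjusted p = 0.364). With alike libraries counted once, non-label-retaining repeat 2 stood at 66.7%, above label-retaining repeat 4 at 55.6%. After thinning the groups were apart again, at 41.0 to 70.5% and 14.0 to 31.8%.

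Cox5b, a subunit on the matrix side, was found in 88.9%, 100%, 50% and 22.2% of label-retaining and 87.5%, 50%, 16.7% and 10% of non-label-retaining cells. Cox7a2l, which helps join complexes III and IV into supercomplexes, was found in 100%, 44.4%, 70.0% and 55.6% against 62.5%, 25.0%, 33.3% and 20.0%. Ndufa4, named for complex I but a subunit of complex IV, was found in 77.8%, 55.6%, 50% and 55.6% against 62.5%, 25.0%, 33.3% and 40.0%. All 3 were higher in the label-retaining cells of each repeat while the groups overlapped (exact permutation p = 0.286, 0.0857 and 0.114, two-sided).

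Complex IV has subunits with tissue-restricted versions, and these were nearly silent. Cox6a2, Cox7a1 and Cox8b, the versions of heart and skeletal muscle, Cox8c, of testis, and the related Ndufa4l2, a gene raised by low oxygen, had no count in any of the 65 cells. A count of 0 allows a share of cells with a count of up to 9.49% in 37 and 12.3% in 28 cells (exact 95% limits, which cover counting error only). The testis version Cox6b2 was found in 3 label-retaining cells, at most at 32.9 CPM, and in 0 non-label-retaining cells. Its widely used counterpart Cox6b1 was found in 100%, 77.8%, 50% and 0% of label-retaining and 62.5%, 25.0%, 33.3% and 0% of non-label-retaining cells, and 1 of the 3 cells with Cox6b2 also held it. Rows of 7 pseudogenes with matching names had no count.

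The ATP synthase turns the proton gradient into ATP. Atp5b, its catalytic beta subunit, was found in 100%, 77.8%, 60.0% and 33.3% of label-retaining and 87.5%, 75.0%, 16.7% and 40.0% of non-label-retaining cells. Atp5a1, the alpha subunit, was found in 100%, 77.8%, 50% and 33.3% against 75.0%, 25.0%, 33.3% and 30.0%. The groups overlapped across repeats for both (exact permutation p = 0.571 and 0.2, two-sided, not paired). Within repeats the label-retaining value was the higher in 3 of 4 for Atp5b and in 4 of 4 for Atp5a1 (sign-flip p = 0.375 and 0.125 over the 4 pairs). The alpha and beta subunits alternate around the same ring, and 22 label-retaining cells held both, 2 Atp5a1 alone and 3 Atp5b alone, while 9 non-label-retaining cells held both, 3 Atp5a1 alone and 6 Atp5b alone. Atp5j2, a small subunit of the membrane part, was found in 54.2 ± 27.4% and 24.8 ± 9.14% of cells and did not overlap after thinning (18.5 to 42.6% against 0.639 to 12.2%, exact permutation p = 0.0286, two-sided).

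Cell by cell, the number of respiratory chain genes found followed the number of genes found. Label-retaining cells held 0 to 40 of the 46 (median 26) and non-label-retaining cells 2 to 40 (median 9.5). At least 30 were found in 11 label-retaining and 2 non-label-retaining cells, and under 6 in 6 and 7 cells. Over cells of at least 10000 counts, Spearman's rho with the number of genes was 0.80 over the 37 label-retaining cells and 0.72 over 24 of the other group, as a description across cells that share libraries' depth and, in part, each other's profile. With total counts it was 0.47 and -0.21. The non-label-retaining cell with 40 genes was cell 3 of repeat 1, which is alike to label-retaining cell 3, also with 40, of which they shared 38.

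With all cells kept, label-retaining repeat 4 departed from this relation. Its cells held 41.7% of the 3379 commonly found genes, near the 40.6% and 41.1% of label-retaining repeats 2 and 3, but 24.7% of the 45 respiratory chain genes, against 51.1% and 46.2% there. Per 1000 genes found, its median cell held 6.29 respiratory chain genes, while the other 3 label-retaining repeats held 12.8 to 14.6 and the non-label-retaining repeats 9.41 to 17.2. Label-retaining repeat 3 includes the alike cells 20 to 23, at 14.1 to 20.3 per 1000. With cell 21 alone kept of these, its median cell was cell 19, at 8.36. Cells 36, 35 and 37 of label-retaining repeat 4, with 3201, 2693 and 2469 genes, held 17, 18 and 12 of the 46. Cell 29 of that repeat, with 3535 genes, held 30. Complex I accessory genes were lowest there, at 14.5% per cell against 43.8 to 64.1% in the other label-retaining repeats. These values come from 9 cells and carry no test.

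**Figure D3:**
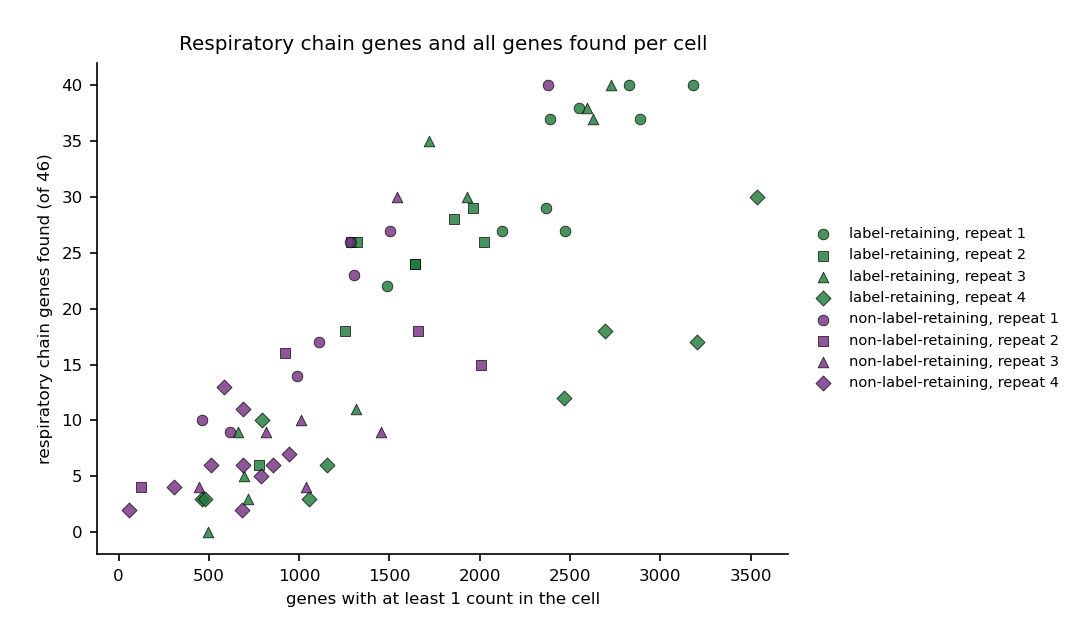
Each point is a cell: genes with at least 1 count (x axis, number) against respiratory chain genes found (y axis, of 46), coloured by group and shaped by repeat. More genes go with more respiratory chain genes in both groups, and 3 label-retaining cells of repeat 4 with 2469, 2693 and 3201 genes lie low at 12, 18 and 17 respiratory chain genes.

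Levels rested on few cells and did not follow presence. The 46 genes took 1.70%, 0.977%, 1.36% and 0.647% of a label-retaining cell's counts on average in repeats 1 to 4, and 1.33%, 1.16%, 2.66% and 1.42% of a non-label-retaining cell's. The non-label-retaining value was the higher in repeats 2 to 4 (1.64 ± 0.685% against 1.17 ± 0.458%), although those cells held fewer of the genes. In repeat 2 this order rested on a cell of 238 counts: without cells under 10000 counts the non-label-retaining value there was 0.563%, below the label-retaining 0.977%, and the non-label-retaining value was the higher in repeats 3 and 4 only (1.46 ± 0.876% against 1.17 ± 0.458%). A median of 10 genes made up 90% of a label-retaining cell's respiratory chain counts and a median of 3 those of a non-label-retaining cell, and the top gene alone gave a median of 26.6% and 60.7%. Across genes, the median share of a gene's counts that came from a single cell was 49.2%, and for 26 genes that cell was label-retaining cell 3, the deepest library.

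Very high levels in single cells were spread over many genes. Of the 46 genes, 15 passed 10000 CPM (counts scaled to one common total per cell) in a cell of at least 10000 counts, 13 of them in a non-label-retaining cell and 4 in a label-retaining cell. Ndufa12, an accessory subunit of complex I, reached 43112 and 33898 CPM in non-label-retaining cells 13 and 14 of repeat 3, an alike pair, against at most 1834 CPM in label-retaining cells. Ndufa3 and Cox7a2l reached 23471 and 12921 CPM in non-label-retaining cell 17 of repeat 3, and Ndufb2 and Ndufs6 19696 and 14376 CPM in cell 18. Among label-retaining cells, Ndufs4 reached 48167 CPM in cell 1 of repeat 1, Ndufaf3 29891 CPM in cell 31 of repeat 4 and Ndufa4 20609 CPM in cell 22 of repeat 3. In those same groups the medians over the cells in which these genes were found ran from 24.4 CPM (Ndufa3) to 340 CPM (Ndufa12), so that 1 or 2 cells set each mean.

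**Figure D4:**
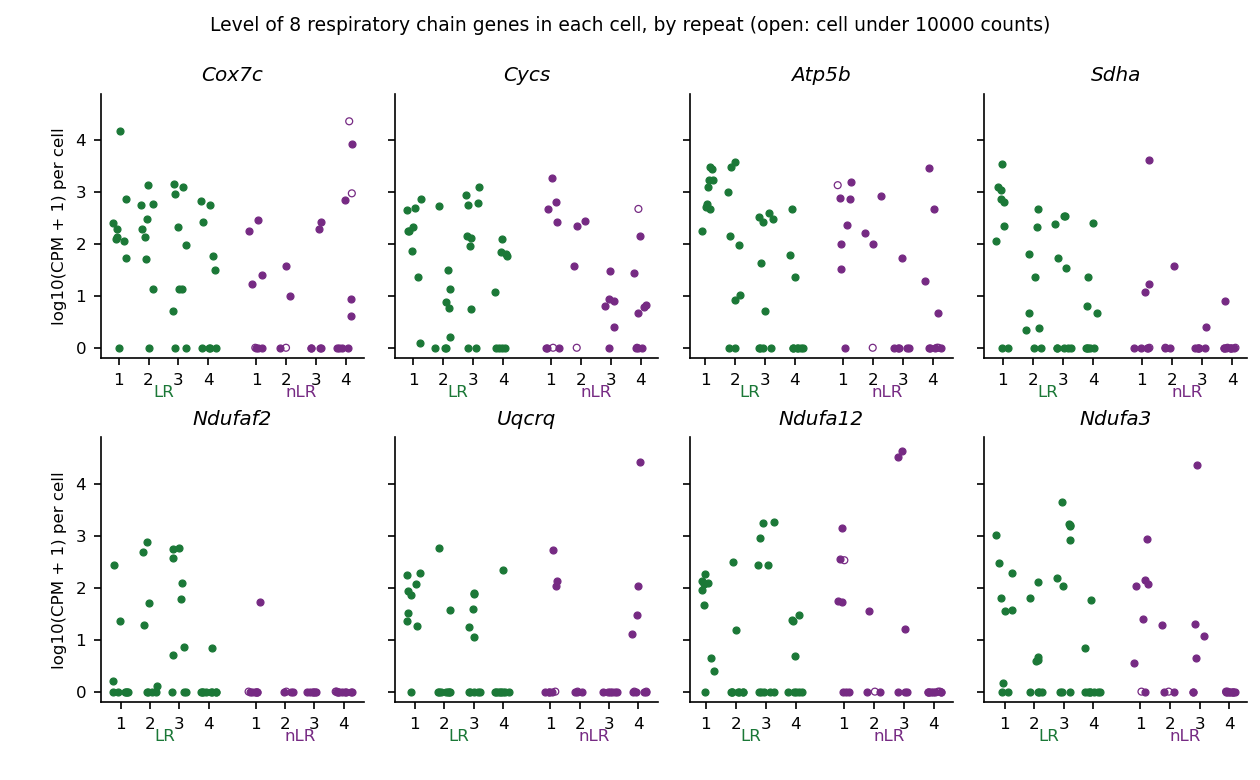
Level of 8 respiratory chain genes in each cell as log10(CPM + 1) (y axis, log scale, 0 for no count), by repeat (1 to 4) and group (LR, label-retaining; nLR, non-label-retaining); open circles are the 4 cells under 10000 counts. Uqcrq, Ndufa12 and Ndufa3 have non-label-retaining cells above 4 on this scale (26834, 43112 and 23471 CPM), and Ndufaf2 has a single non-label-retaining point.

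Where a gene was found, some genes had like levels in both groups and others did not. Cox7c ran from 4.13 to 14916 CPM in the label-retaining cells in which it was found, with a median of 193 CPM, and in non-label-retaining cells the median was 191 CPM. Cycs had medians of 128 and 36.5 CPM where found, and Atp5b of 393 and 236 CPM. The highest cell of Ndufv1 stood at 3113 CPM in the label-retaining and 340 CPM in the non-label-retaining group, and that of Uqcrc2 at 894 and 16458 CPM. The 340 CPM of Ndufv1 was 1 count in a cell of 2938 counts, and the next non-label-retaining value was 220 CPM. Sdha had medians of 211 and 13.7 CPM where found, its highest non-label-retaining value, 4076 CPM, being in the cell 3 that is alike to label-retaining cell 3 (3500 CPM). Without both of these cells the highest non-label-retaining value of Sdha was 36.7 CPM. Label-retaining cells 5 and 7, both of repeat 1, then passed 1000 CPM (1272 and 1091), and the highest in label-retaining repeats 2 to 4 was 467 CPM.

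Per kilobase of transcript, and averaged over repeats with equal weight, the order of the genes differed between the groups. In label-retaining cells Ndufa4 was highest at 1718 ± 2422 CPM per kilobase (SD, n = 4), followed by Uqcr10 at 1430 ± 1865, Cox7c at 1278 ± 1423 and Ndufs4 at 837 ± 1565. In non-label-retaining cells Ndufa12 was highest at 3916 ± 7604, followed by Ndufa3 at 2357 ± 4463, Ndufc2 at 1746 ± 2586 and Atp5mpl at 1650 ± 1830 CPM per kilobase. In each group the neighbours in this order lay within each other's SD. Small subunits led both orders, while Cycs stood at 58.8 and 48.9 and Sdha at 91.5 and 45.1 CPM per kilobase. The highest value of Ndufc2 came from 3 counts in a cell of 238 counts, and without cells under 10000 counts it was not among the 10 highest.

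Sums of counts, one for each group in each repeat, were compared with edgeR's quasi-likelihood test over 2767 genes. Of 44 respiratory chain genes tested, 0 passed an adjusted p of 0.05, as 0 of all genes did (0%, smallest adjusted p = 0.325). At an unadjusted p under 0.05, Ndufaf2 was higher and Uqcrq lower in label-retaining cells, beside 6.47% of all genes higher and 4.45% lower. The fitted log2 fold change was above 0 for 23 of the 44 (52.3%), beside 65.2% of all genes, with a median of 0.44 beside 1.14. With total counts in place of TMM factors it was above 0 for 31 of 44, beside 76.3% of all genes, with medians of 1.16 and 1.77. With the repeat as a block it was above 0 for 36 of 44, beside 74.8% of all genes, with medians of 1.96 and 1.90. Without the deepest library it was above 0 for 21 of 44, beside 60.2% of all genes, with medians of -0.247 and 0.941. DESeq2 on the same sums called 11 of the 2767 genes (0.398%) and 0 of the 44, and at an unadjusted p under 0.05 it put 2 of the 44 higher and 1 lower, beside 204 higher and 138 lower of the 2767.

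Ndufaf2 had the highest fitted value, a log2 fold change of 8.39 ± 3.21 (SE, adjusted p = 0.325 by edgeR). Its TMM-scaled levels were 17.6, 108, 263 and 0.444 CPM in label-retaining repeats 1 to 4 and 0.671, 0, 0 and 0 CPM in non-label-retaining repeats. Label-retaining repeat 4 therefore lay below non-label-retaining repeat 1. The non-label-retaining side of this fit is a single count, so the fitted value depends on the fit's prior count. Pooled over cells the ratio was 411 (exact 95% interval 73.7 to 16236, counting error only).

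Uqcrq, a small subunit of complex III, had the lowest value, -6.74 ± 2.91 (adjusted p = 0.403 by edgeR). Its levels were 75.0, 54.5, 33.8 and 26.6 CPM in label-retaining repeats and 37.6, 0, 0 and 20283 CPM in non-label-retaining repeats. Cell 26 of repeat 4 held 7610 of the 7707 counts of Uqcrq in the non-label-retaining group, while in the other 3 non-label-retaining repeats the level was within or below the label-retaining range of values. Without non-label-retaining repeat 4 the fold change was 1.44, and with the repeat as a block it was 2.66 (adjusted p = 0.918 and 0.792), so its direction rests on that repeat. With the block, Ndufb3, an accessory complex I subunit, and Atp5h, a stalk subunit of the ATP synthase, joined Ndufaf2 at an unadjusted p under 0.05, all higher in label-retaining cells, beside 7.73% of all genes (fold changes of 6.13, 5.87 and 7.55, adjusted p = 0.592 for each by edgeR). Their TMM-scaled non-label-retaining levels were 32.9, 0, 0 and 0 CPM for Ndufb3 and 33.6, 0, 3.84 and 0 CPM for Atp5h, each led by repeat 1.

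**Figure D5:**
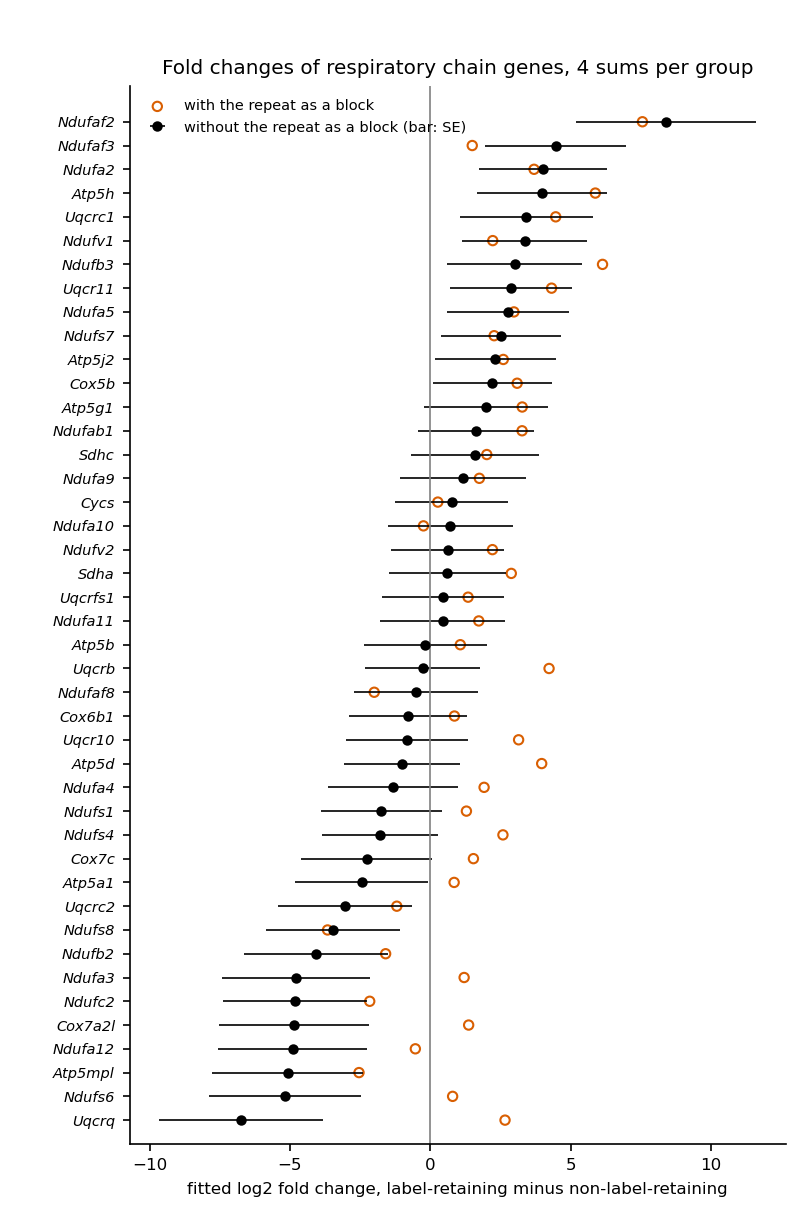
Fitted log2 fold change (x axis, label-retaining minus non-label-retaining, 4 sums a group) of 43 of the respiratory chain genes tested, with the standard error as a bar (black) and the value with the repeat as a block (orange). The black points run from -6.74 (Uqcrq) to 8.39 (Ndufaf2) with 22 above 0, and 35 of the orange points lie above 0.

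On counts simulated for this comparison over 2767 genes with the estimated dispersion of 3.39, the test called 0% of changes of 4-fold, 16-fold and 64-fold and gave the right direction in 85.2%, 96.3% and 98.5% of them. With a dispersion of 0.1 it called 98.6%, 100% and 100%. A count of 0 called genes thus does not show that the groups were alike.

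Genes that work beside the respiratory chain were compared with the same 2 measures, and none passed an adjusted p of 0.05 in either. Of 13 genes of the citric acid cycle and pyruvate entry in the table, 10 were found in at least 10 cells and 9 of these had the larger mean share in label-retaining cells, where 93.3% of all genes did, as for the lists that follow. Ogdh, the oxoglutarate dehydrogenase, was found in 36 and 22 cells and Pdk4, which switches pyruvate dehydrogenase off, in 27 and 13. The shares overlapped for all 10 with all counts, and after thinning they did not for Pdha1, the pyruvate dehydrogenase subunit that Pdk4 acts on (13 and 2 cells, unadjusted p = 0.00961 by edgeR), beside 4.68% of all genes. The list's median log2 fold change was 2.33, and it took 0.281 to 0.573% of counts in the label-retaining repeats and 0.112 to 0.258% in the non-label-retaining ones.

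Carriers and channels of the inner and outer membrane, with electron entry and ubiquinone genes, gave 8 of 8 with the larger mean share in label-retaining cells and 0 that did not overlap. Slc25a3, the phosphate carrier that feeds the ATP synthase, was found in 27 and 17 cells and Ucp2, an uncoupling protein of blood cells, in 28 and 14, with a list median of 1.42. Of the assembly factors of complexes III and IV with Cyc1, 10 of 11 had the larger share, with Cox10, of haem A synthesis, in 20 and 18 cells and Coa4 in 21 and 11 (median 1.71). Of the other assembly factors, Tmem70 was found in 18 and 7 and Atpaf2 in 17 and 3 cells (median 0.69). Of biogenesis and mitochondrial DNA genes 4 of 5 had the larger share (median 4.09 over 3 genes). Ssbp1, which coats single-stranded mitochondrial DNA, was found in 16 and 6 cells and Nrf1, the factor of the promoter motif above, in 11 and 9. The antioxidant genes Gpx4 and Gpx1 were found in 32 and 18 and in 19 and 15 cells (median 1.17). From the citric acid cycle to the antioxidant list, these medians rest on the 10, 8, 9, 2, 3 and 2 genes that edgeR tested. Cox10, Coa4 and Nrf1 were not among those. The medians stand beside 1.14 over all 2767 genes, and genes of the mitochondrial genome were not analysed here.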

How the data were processed

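The authors deposited 1 table of values per gene and cell, with NCBI gene identifiers. Per the submitters' processing notes the build was mm10 and DESeq was used. The aligner, the counter and the annotation were not stated. The deposited table is named as normalized counts, but its totals run from 86 to 20516069, so the deposited values were treated as unscaled estimated counts. If a scaling was applied, the minimums of 1 and 10 counts and the thinned values are not in reads. Of the values above 0, 34.9% are not whole (tolerance 0.0001). How reads shared by gene copies were counted is not stated, so genes with near-identical copies are uncertain. Identifiers were matched to RefSeq GRCm38.p6 (16216 of 18036, the other 1820 holding 0.130% of counts). The table holds 46.7% of 21900 protein-coding genes, so totals and shares are over this part of the genome. No per-sample column lay outside the series. SMART-Seq v4 marks neither strand nor molecule, so counting intervals cover counting error only.

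The repeat was the unit, 4 against 4. The main tests were the quasi-likelihood test of edgeR 4.0.16 in R 4.3.3 with TMM factors and Benjamini-Hochberg adjustment, on sums rounded to whole counts, for genes with a mean of at least 10 counts per cell over the 8 sums and a count in at least 10 cells, and an exact two-sided permutation test of the share of cells with at least 1 count. DESeq2 1.42.0 and limma 3.58.1, on log2 values with a pseudocount of 1, were alternatives. Thinned shares are expected values. Lengths are median GENCODE transcript lengths. The labels give both groups the same biological repeats, so the numbers pair the samples. Same-numbered sums of the 2 groups deviated together (r = 0.55, 0.29, 0.17 and 0.16), while differently numbered sums reached up to 0.15. The value of repeat 1 includes the alike cells 3, so these correlations do not settle the pairing by themselves. Scripts were tested on simulated data.

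The respiratory chain genes, the lists and the tests were chosen with earlier results of these data known. Genes named with all repeats were the 12 found in most cells, those whose shares did not overlap, those at an unadjusted edgeR p under 0.05, and tissue isoforms with a count beside their partner; of each pathway list the 2 found in most cells and those not overlapping. Others (Atp5j2, Uqcr10, Sdhc, Uqcrc1, Ndufaf7, Ndufb3, Atp5h, Pdha1 and the genes named for 1 high cell) were chosen after their values were seen. Alike libraries, the deepest library and exon-union lengths were alternatives chosen after seeing the data. Values of 1 respiratory chain gene are not reported here singly or drawn, and it is part of the counts and means.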

Additional observations from a re-analysis of the deposited data

Results flagged for a closer look

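Of 74 groups of 4 repeat values examined, 11 had a repeat far from the other 3 by Dixon's 95% criterion. Chance flags about 1 in 20 groups of continuous values, but that rate does not hold for values with ties. Where the other 3 values tie, as at 50% or 0, any difference is flagged. By share of cells in the non-label-retaining group, Cox7c was low in repeat 3 (33.3%, the others 50%) and Ndufs7 in repeat 4 (30.0%, the others 50%). Atp5a1 was high in repeat 1 (75.0%, the others 25.0 to 33.3%), and so was Ndufaf2 (12.5%, the others 0%), whose TMM-scaled level there was 0.671 CPM. TMM-scaled levels in the same group were high for Uqcrq in repeat 4 (20283 CPM, the others up to 37.6). They were high in repeat 1 for Ndufb3 (32.9 CPM, the others 0) and Atp5h (33.6 CPM, the others up to 3.84). Complex I assembly factors took 0.337% of counts in label-retaining repeat 4, where cell 31 held Ndufaf3 at 29891 CPM, and 0.0174 to 0.0350% in the others. Complex II took 0.106% of counts in label-retaining repeat 1 and 0.0549% in non-label-retaining repeat 1, the repeats that hold the alike cells 3.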

How the results depend on the processing

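Under all alternatives run, edgeR and limma called 0 genes and 0 of the 44 respiratory chain genes, and DESeq2 called 11 genes and 0 of the 44. The number of the 44 with a fold change above 0 (23) was 36 with the replicate block and 38 by limma, with or without the replicate block, and 19 to 29 without single repeats or sums. Over all 2767 genes the share above 0 (65.2%) was 74.8% with the block, 80.6% by limma and 56.9 to 67.7% without single repeats or sums. The number whose shares of cells did not overlap (2) was 4 at 10 counts or more, 1 without cells under 10000 counts (Sdha), 1 with alike libraries counted once (Ndufa5), and 4 to 11 without single repeats. There 3 values against 3 are compared, which cannot go below p = 0.1, and 454 to 761 of 3379 genes lay higher in label-retaining cells without overlap. The direction turned for Uqcrq with the replicate block (2.66) and over the fits without a repeat or sum (-7.46 to 1.56). It turned for Cycs without cells under 10000 counts (-4.08 points) and without single repeats (-6.85 to 12.6), for Ndufv1 without single repeats (-0.185 to 18.8), and for Uqcrc2 at 10 counts or more (19.7), when thinned to 10000 counts (5.33, but -1.03 at 20000) and without single repeats (-25.6 to 5.93). The cause was not tested. A sign-flip test over the 4 pairs in place of the permutation test put 0 of the 45 under an unadjusted p of 0.05 instead of 2, since it cannot go below 0.125. With the replicate block, edgeR at an unadjusted p under 0.05 put 3 of the 44 higher and 0 lower, instead of 1 and 1. Over all 2767 genes it put 214 higher and 9 lower, instead of 179 and 123. With the block limma put 5 of the 44 higher instead of 0, beside 410 of the 2767 genes instead of 140. At an adjusted p of 0.05 the block changed no call. The other 105 values that answer a comparison stayed within 1.5 times or 1 SD, but not all kept their direction. The median log2 fold change of the respiratory chain genes, 0.44 in the main fit, fell below 0 in some alternatives. It was -0.247 without the deepest library, -0.202 for genes in at least 20 cells and -0.036 by DESeq2. Without label-retaining repeat 1 it was -0.443 and without non-label-retaining repeat 2 -0.274, and it stayed above 0 in the other alternatives. The median non-label-retaining cell held 2 respiratory chain genes at 10 counts or more and the median label-retaining cell 11, and the part of depth in this was not tested.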
